A study of Mus musculus with 34 samples.

Results

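The response to the induction of adipogenesis was followed within H3.3K36M-expressing brown preadipocytes, by comparing the RNA-Seq library of K36M cells at D2 with that of the same cells at D0. RefSeq transcripts were assigned to genes, and where a gene had several, the one highest on average over the 14 RNA-Seq libraries stood for it. Genes with an RPKM of 1 or more in either K36M library were counted. RPKM is a read count corrected for transcript length and sequencing depth. This gave 12317 of 23109 genes. *Prickle2*, with a higher RPKM of 1.001, lay just inside this limit, and *Zfp354a*, with 0.9998, lay just outside.

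The cells were brown preadipocytes from interscapular fat of newborn C57BL/6J mice, immortalized with SV40T and infected with retrovirus expressing the K36M mutant of histone H3.3 or WT H3.3. D0 is the confluent culture before induction. D2 is the culture after 2 days with insulin, T3, the phosphodiesterase inhibitor IBMX, the glucocorticoid dexamethasone, and indomethacin. Ctrl cells and *Nsd2* KD cells, which received a control shRNA or an shRNA against the H3K36 methyltransferase *Nsd2* by lentivirus, were followed over the same interval in a separate experiment. All 4 courses therefore share the immortalization and the induction medium. The sample labels describe the parental cells as carrying a floxed glucocorticoid receptor gene (*Nr3c1*) and mention a control or a Cre vector, whereas the methods of the study describe preadipocytes of WT mice. *Nr3c1* had an RPKM of 25.7 at D0 and 17.6 at D2 in K36M cells, and 30.9 and 17.7 in WT cells. Each condition is 1 library from 1 immortalized population, so no difference has a replicate check, and no p-value was computed.

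H3.3K36M is an oncohistone that blocks H3K36 methyltransferases and so depletes H3K36 methylation across the genome. In preadipocytes, the hormone cocktail acts through the glucocorticoid receptor, cAMP, and insulin signaling to raise C/EBPβ and C/EBPδ, which in turn induce PPARγ and C/EBPα. The last pair switches on the genes of lipid storage and insulin response, while cells lose the matrix and stress fibers of the fibroblast state.

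The K36M libraries held 19859337 mapped reads at D0 and 12529719 at D2. For a transcript of 1 kb, 3 reads, the most that a count of 0 allows, correspond to an RPKM of 0.151 at D0 and 0.239 at D2. Intervals below are 95% Clopper-Pearson intervals of the ratio of reads. They cover counting error only and compare 2 libraries rather than 2 conditions. Of 15 listed preadipocyte and mesenchymal markers, 12 were counted and 3 were below an RPKM of 1 in both K36M libraries. Some were abundant at D0, including *Vim* at 824, *Lgals1* at 1154, *S100a4* at 347, and *Thy1* at 37.7 RPKM. These are examples from the list and do not by themselves settle the identity of the cells. Of 24 markers of other cell types, 20 were below an RPKM of 1 in both K36M libraries. The muscle factors *Myod1*, *Myf5*, *Myog*, and *Pax7* and the leukocyte marker *Ptprc* did not exceed 0.0340. The other 4 were the chondrocyte collagen *Col2a1*, at 16.8 RPKM at D0 and 1.36 at D2, *Krt18*, *Des*, and *Tubb3*, of which all but *Tubb3* were lower by over 2-fold at D2. The summed level of the 24 markers was 31.5 at D0 and 8.30 at D2. In such bulk samples, fewer cells of a type and less RNA per cell cannot be told apart.

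Between D0 and D2, 1262 of the 12317 genes increased over 2-fold in K36M cells (10.2%) and 1383 decreased (11.2%), here called up-regulated and down-regulated, while 9672 (78.5%) stayed within 2-fold. The interval lay wholly past 2-fold for 773 and 794 of them. The changes reached far, with 448 genes up-regulated and 436 down-regulated over 4-fold, and 130 and 90 over 16-fold. Among up-regulated genes, 397 started from an RPKM below 1 and 587 reached at least 10. Among down-regulated genes, 517 ended below 1 and 554 started from at least 10. At the top of the range, 80 up-regulated genes had an RPKM of at least 100 at D2 and 70 down-regulated genes had at least 100 at D0. The median log2 change was -0.07. The shares of 10.2% and 11.2% are the reference for the counts of all gene lists below.

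The 12 largest rises covered genes of different functions. *Zbtb16*, a transcriptional repressor known as a glucocorticoid-induced gene (chromosome 9 from 48462416 to 48644050 in mm9), went from an RPKM of 0.158 to 36.1, a 229-fold increase with a log2 change of 7.84 (95% interval 7.14 to 8.65). *Tmem100* had no reads at D0 and 420 reads at D2, an RPKM of 19.0, and was at least 222-fold higher. *Rgs2*, a cAMP-inducible regulator of G protein signaling (chromosome 1 from 145846468 to 145851291), increased from 0.686 to 67.8, or 98.8-fold. The alcohol dehydrogenase gene *Adh1* increased from 1.66 to 118, or 71.3-fold.

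*Fabp4*, the fatty acid binding protein of adipocytes (chromosome 3 from 10204347 to 10208576), increased from 18.5 to 1473 RPKM, or 79.4-fold (log2 6.13 to 6.50), and was second in level only to the ferritin gene *Fth1* among all up-regulated genes at D2. *Mgll*, which codes for monoglyceride lipase, went from 0.455 to 62.0, a 136-fold increase. The lipid droplet gene *Cidec* (chromosome 6 from 113374628 to 113385754) went from 0.444 to 54.0, a 122-fold increase. The fatty acid transporter gene *Cd36* went from 6 to 454 reads, a log2 change of 6.91 (5.77 to 8.36). The adipokine gene *Retn* rests on 1 read at D0 and 80 at D2, which leaves its log2 change of 6.99 between 4.47 and 12.31. The others of the 12 were *Lrg1* and the paralogs *Serpina3m* and *Serpina3n*, whose reads may be shared. All 12 were also over 2-fold up-regulated in WT cells.

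The 12 largest falls covered genes of different functions, several of them induced by interferon. *Cemip*, which codes for a hyaluronan-degrading protein, went from 16.5 to 0.314 RPKM, 52.6-fold lower and with a log2 change of -5.72 (-6.31 to -5.18). *Fgd3*, which codes for an exchange factor of small GTPases, was 26.1-fold lower and the secreted phospholipase gene *Pla2g2e* 24.7-fold lower. The chemokine gene *Cxcl10* (chromosome 5 from 92775664 to 92777915) went from 235 to 10.8 RPKM, 21.8-fold lower. *Rsad2*, *Usp18*, *Ifit3*, and *Apol9b*, which belong to the genes induced by interferon, were between 14.5-fold and 25.2-fold lower, although *Apol9b* has a close paralog. *Ankrd1*, a target of YAP signaling, was 16-fold lower. *Gpnmb*, *Gpr176*, and the adrenomedullin gene *Adm* completed the 12, at 17.3-fold, 16.6-fold, and 14.5-fold lower.

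**Figure D1:**
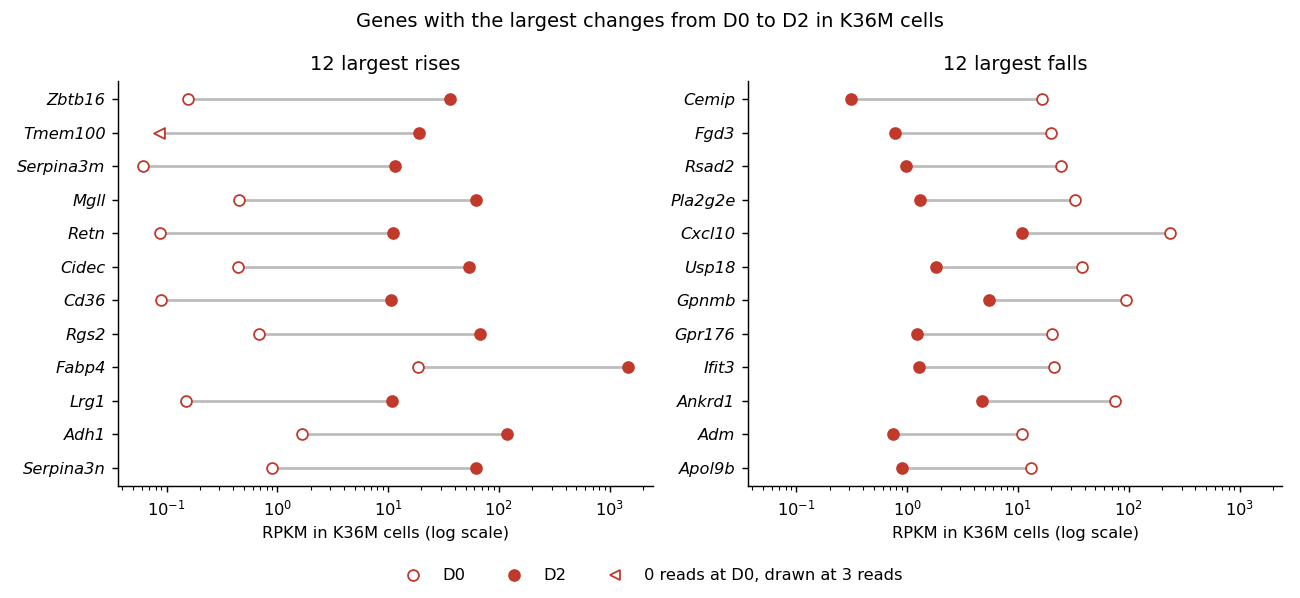
RPKM on a log scale at D0 (open circles) and D2 (filled circles) in K36M cells for the 12 largest rises (left) and 12 largest falls (right), 1 library each, with the 0 of *Tmem100* drawn at the level of 3 reads. *Fabp4* ends at 1473 RPKM, above every other gene shown, and *Cxcl10* starts highest among the falls, at 235.

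Changes over 2-fold included genes of very high level. Among up-regulated genes, those with the highest RPKM at D2 were *Fth1* (779 to 3907), *Fabp4*, the metallothionein gene *Mt2* (103 to 1003), the nuclear RNA *Malat1* (387 to 977), and *Mt1* (129 to 749). *Fth1* was 5.02-fold higher in K36M cells and 1.49-fold higher in WT cells, where it went from 1276 to 1902, and its many processed pseudogenes make its read assignment uncertain. Among down-regulated genes, those with the highest RPKM at D0 were *Actb* (1283 to 467), the autophagy receptor gene *Sqstm1* (974 to 387), the ER chaperone gene *Hspa5* (616 to 203), *Ccl2* (522 to 72.3), and the BMP antagonist gene *Grem1* (485 to 59.4). *Actb*, a common reference gene, was 2.75-fold lower in K36M cells and had a log2 change of -1.57 in WT cells.

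Of 20 counted transcription factors that promote adipogenesis, 11 were up-regulated in K36M cells, 0 were down-regulated, and 9 stayed within 2-fold, with a median log2 change of 1.22, against 10.2% and a median of -0.07 for all genes. *Pparg*, the master regulator (chromosome 6 from 115311239 to 115440419), went from 11.5 to 49.6 RPKM, or 4.30-fold, with a log2 change of 2.11 (1.94 to 2.27). Its change in WT cells was 2.32, from 13.4 to 66.7, and the difference between the 2 courses, -0.21, had an interval of -0.43 to 0.00 that reached 0. The lipogenic factor gene *Srebf1* went from 13 to 59.0 and the liver X receptor gene *Nr1h3* from 2.15 to 8.46. The factor genes *Egr2*, *Zfp423*, and *Stat5a* were 4.80-fold, 4.01-fold, and 2.94-fold higher. *Cebpb*, already at 107 RPKM at D0, reached 197.

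Among the C/EBP genes, *Cebpa* and *Cebpd* had changes that differed from those in WT cells. *Cebpa* (chromosome 7 from 35904312 to 35906945), which maintains the adipocyte state together with *Pparg*, went from 6.33 to 44.9 RPKM in K36M cells, or 7.09-fold. In WT cells it started at 6.64 and reached 208, so the K36M change was lower by 2.14 on the log2 scale (interval of the difference -2.37 to -1.91), whereas it was 0.41 above the change in Ctrl cells (0.20 to 0.61). *Cebpd*, an early factor, went from 7.20 to 24.9 in K36M cells and from 42.8 to 14.4 in WT cells. The coactivator gene *Ppargc1b* went from 2.26 to 5.54 in K36M cells and from 0.844 to 9.13 in WT cells. *Klf5*, another early factor, went from 8.38 to 4.21, just short of the 2-fold limit.

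Of 18 counted genes that restrain adipogenesis, 7 were down-regulated and 2 were up-regulated. Among all counted genes, 11.2% were down-regulated and 10.2% up-regulated, so the up-regulated count was near the general share. *Wnt10b* was 5.39-fold lower, *Runx1t1* 4.70-fold lower, and the factor gene *Klf2* went from 8.90 to 2.11 RPKM. The 2 up-regulated genes code for the helix-loop-helix inhibitors *Id2*, from 8.23 to 40.2, and *Id3*, from 33.9 to 168. Neither was called in WT cells, although *Id3* was down-regulated in Ctrl cells. In WT cells *Id2* went from 18.5 to 17.2 and *Id3* from 98.4 to 62.5, so their levels at D0 were higher than in K36M cells. The differences from WT were 2.39 (2.10 to 2.68) and 2.96 (2.79 to 3.13) on the log2 scale. *Dlk1*, the marker of preadipocytes that is lost on differentiation, went from 21.7 to 17.4 in K36M cells and from 27.6 to 6.09 in WT cells.

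Most lipid storage genes rose. Of 15 counted genes for lipid droplet and lipolysis proteins, 12 were up-regulated and 0 were down-regulated, with a median log2 change of 3.14, beside 3.39 for the same genes in WT cells and 3.57 in Ctrl cells. The lipase genes *Lipe* and *Pnpla2* reached 44.3 and 71.9 RPKM from 1.59 and 8.16. Perilipin gene *Plin1* went from 0.325 to 14.2, and *G0s2*, an inhibitor of lipolysis, from 1.91 to 53.1. *Plin2*, present at 195 RPKM before induction, reached 339. Levels at D2 were still lower than in WT cells for several, with *Lipe* at 145, *Pnpla2* at 141, and *G0s2* at 165 in WT cells.

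Several triglyceride synthesis enzymes lagged behind WT cells. Of 12 counted enzymes, 7 were up-regulated and 2 down-regulated in K36M cells, with a median log2 change of 1.45 against 2.51 in WT cells and 2.16 in Ctrl cells, and the K36M change lay below that in WT cells, with an interval of the difference that excluded 0, for 9. *Dgat2*, which makes the last step of triglyceride synthesis (chromosome 7 from 106302173 to 106331223), went from 17.4 to 26.5 RPKM in K36M cells, from 30.3 to 207 in WT cells, and from 3.73 to 49.2 in Ctrl cells. *Gpat3*, which makes the first step, went from 13 to 38.1 in K36M cells and from 8.89 to 144 in WT cells. *Lpin1*, *Gpam*, and *Dgat1* were up-regulated, with log2 changes of 2.53, 2.22, and 2.05.

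Genes for uptake and binding of fatty acids were mixed, with 5 of 11 up-regulated and 1 down-regulated. Lipoprotein lipase gene *Lpl* went from 55.5 to 470 RPKM and the acyl-CoA synthetase gene *Acsl1* from 6.44 to 57.7. *Fabp5* (chromosome 3 from 10012548 to 10016607), which lies near *Fabp4*, reached only 37.7 from 11.3 RPKM in K36M cells, whereas it went from 14.9 to 482 in WT cells and from 18.5 to 358 in Ctrl cells. The log2 change of *Fabp4* differed from that in WT cells by -0.12 (-0.35 to 0.10), while its level was lower at both times, with 37.6 and 3249 RPKM in WT cells. The muscle type gene *Fabp3* was lower at D2, 0.624 against 4.41. For fatty acid synthesis and desaturation, 7 of 14 genes were up-regulated and 0 down-regulated. They included *Scd1* (28.2 to 414), *Scd2* (25.9 to 163), and pyruvate carboxylase gene *Pcx* (7.95 to 187), which was 23.5-fold higher.

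Of 11 counted adipokines, the secreted factors of fat, 9 were up-regulated and 0 down-regulated, with a median log2 change of 3.27 against 1.26 in WT cells. *Adipoq*, the adiponectin gene (chromosome 16 from 23146609 to 23158101), went from 0.286 to 10.6 RPKM on 7 and 164 reads, and the angiotensinogen gene *Agt* from 2.88 to 85.7. *Angptl4*, an inhibitor of lipoprotein lipase, went from 12.4 to 181. The level at D0 was also lower than in WT cells for *Agt*, at 41.7 in WT cells, and for *Lcn2*, at 24.4 in K36M and 269 in WT cells. For 9 of the 11 the K36M change lay above that in WT cells, with an interval of the difference that excluded 0. The summed RPKM of the 13 listed was nevertheless lower than in WT cells at both times. It went from 199 to 586 in K36M cells, from 507 to 759 in WT cells, and from 192 to 245 in Ctrl cells. Insulin signaling genes were up-regulated in 7 of 18 cases and down-regulated in 1. *Irs2*, an adaptor of the insulin receptor, went from 9.74 to 41.5, and *Pde3b*, through which insulin lowers cAMP, from 3.93 to 40.8. *Slc2a4*, the insulin-regulated glucose transporter, reached 2.74 RPKM from 1 read at D0.

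Of 17 thermogenic genes, 8 reached an RPKM of 1 in either K36M library, beside 12317 of 23109 genes in all. Of the 8, 2 were up-regulated, the potassium channel gene *Kcnk3* (0.251 to 8.17 RPKM) and *Lhx8* (1.94 to 8.03). Among all counted genes, 10.2% were up-regulated. *Ucp1*, the uncoupling protein of brown fat, had 0 reads at D0 and 4 at D2, at 0.194 RPKM, and 0.159 at D2 in WT cells. *Elovl3* went from 3.22 to 5.39 in K36M cells, and its log2 changes were 0.75 in K36M, 2.41 in WT, and 7.34 in Ctrl cells.

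Known targets of the hormones in the medium were examined next, with the reservation that time in culture and induction cannot be told apart. Of 22 counted glucocorticoid receptor targets, 14 rose over 2-fold and 0 fell, with a median log2 change of 1.75, beside 1.35 in WT cells, where 12 were up-regulated, and 1.76 in Ctrl cells, where 11 were. *Tsc22d3* went from 11.2 to 99.9 RPKM, the receptor cochaperone gene *Fkbp5* from 18.1 to 148, the glutamine synthetase gene *Glul* from 14.4 to 118, and the clock gene *Per1* from 10.4 to 37.5. *Sgk1* went from 50.4 to 28.2 and was called neither way. For targets of cAMP and CREB, 10 of 17 rose over 2-fold and 2 fell. The nuclear receptor gene *Nr4a1* went from 4.88 to 78.0, or 16-fold, and the phosphodiesterase gene *Pde4d* from 3.55 to 43.1. The difference from WT cells was 0.17 (-0.10 to 0.44) for *Nr4a1* and 0.04 (-0.14 to 0.21) for *Pde4d*. *Ptgs2* and *Gadd45g* were the 2 down-regulated genes.

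Of 16 counted AP-1, EGR, and MYC factors, 6 were down-regulated and 2, *Egr1* and *Egr2*, were up-regulated. *Klf6* went from 55.5 to 7.97 RPKM, *Atf3* from 60.7 to 10.6, *Maff* from 33.2 to 6.47, and *Myc* from 135 to 66.0. *Atf3*, a stress-induced factor, had log2 changes of -2.52 in K36M, -0.65 in WT, and 4.62 in Ctrl cells.

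Genes of sterol synthesis were frequently up-regulated in K36M cells. Of 23 counted genes of cholesterol synthesis and uptake, 14 were up-regulated and 1 was down-regulated in K36M cells, with a median log2 change of 1.22. In WT cells 9 were up-regulated (median 0.80), in Ctrl cells 1 was up-regulated and 6 were down-regulated (median -0.61), and in *Nsd2* KD cells 0 and 15 (median -1.47). *Hsd17b7*, which codes for an enzyme of sterol synthesis, went from 2.77 to 22.2 RPKM, and *Nsdhl*, another such gene, from 3.56 to 13.2. *Hsd17b7* went from 4.51 to 17.2 in WT cells, and the difference was 1.06 (0.81 to 1.31). The 9-base letters of a sterol response element, TCACCCCAC, were searched in the 250 bases before the start on both strands. They were in 0 of the 15 genes of this list with a promoter at hand. Of all 27025 genes with a RefSeq promoter, 0.555% had them. At so low a share, 0 among 15 carries no information on the regulation of these genes.

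Fatty acid oxidation genes were up-regulated more often than respiratory chain genes. For fatty acid beta-oxidation, 12 of 22 genes were up-regulated and 1 was down-regulated, with medians of 1.13 in K36M and 1.2 in WT cells. *Acadm*, the medium-chain dehydrogenase gene, went from 6.11 to 45.7 RPKM and *Hadh* from 13.6 to 83.4. Of 31 genes of the respiratory chain and TCA cycle, 5 were up-regulated in K36M cells, with a median of 0.46, and 19 in WT cells, with a median of 1.03. The K36M change lay below that in WT cells, with an interval of the difference that excluded 0, for 26 of the 31. *Atp5b*, a subunit of ATP synthase, went from 607 to 576 in K36M cells and from 375 to 765 in WT cells, so the K36M library was the higher at D0 and the lower at D2. The up-regulated genes included *Idh3a*, *Cycs*, *Cox5a*, and *Ndufb9*. In Ctrl cells 4 of the 31 were up-regulated, with a median of 0.59. Of 20 glycolytic and hypoxia-responsive genes, 3 were down-regulated and *Bnip3* alone was up-regulated.

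**Figure D2:**
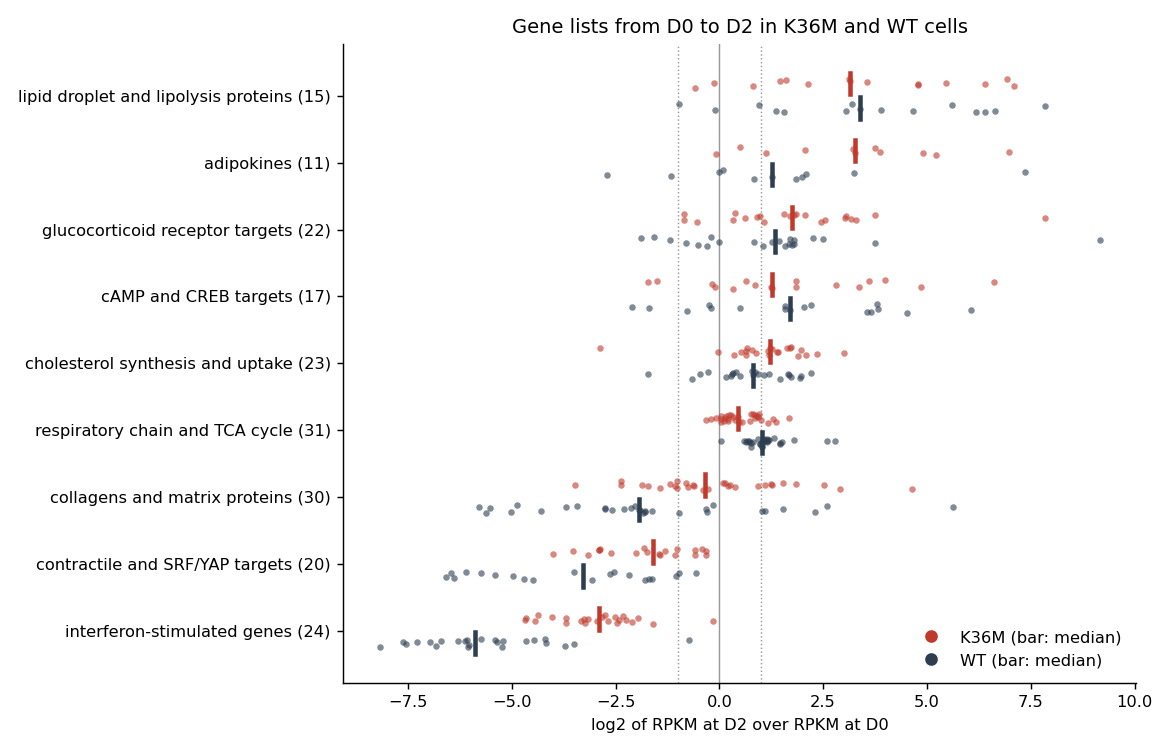
Log2 of RPKM at D2 over RPKM at D0 for members of 9 gene lists in K36M (red) and WT (dark) cells, with the number of counted members in parentheses, bars at the medians, and dotted lines at 2-fold. K36M medians sit nearer to 0 than WT medians for interferon-stimulated (-2.89 and -5.88), contractile (-1.59 and -3.29), and matrix genes (-0.34 and -1.92), while lipid droplet genes lie close together (3.14 and 3.39).

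Few proliferation genes changed over 2-fold. Of 35 genes of DNA replication and G1/S, 1 was up-regulated (*Tk1*) and 1 was down-regulated (*Ccnd1*, 52.0 to 7.97 RPKM), with a median of -0.18. In WT cells 6 were up-regulated and 1 was down-regulated, with a median of 0.55. The K36M change lay below that in WT cells for 29 of the 35 and above it for 1, with intervals of the difference that excluded 0. For mitosis and G2/M, 0 of 35 were up-regulated and 2, *Cdc20* and *Ndc80*, were down-regulated (median -0.11). WT cells also had few calls, with 1 up-regulated and 0 down-regulated (median 0.04), and *Nsd2* KD cells had 4 and 1 (median 0.18). The K36M change still lay below that in WT cells for 17 of the 35 and above it for 1, with intervals that excluded 0. Ctrl cells had the most calls, with 0 up-regulated and 18 down-regulated (median -1.11). Among 16 counted cell cycle inhibitors, *Gas1* (13.1 to 90.0), *Cdkn2c* (10.5 to 39.8), and *Cdkn2b* (20.8 to 55.2) were up-regulated and *Gadd45a* was down-regulated. In WT cells *Gas1* went from 63.8 to 35.8 and *Cdkn2b* from 62.9 to 17.9.

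Most contractile genes were repressed, with a median nearer to 0 than in the other courses. Of 20 contractile and SRF/YAP target genes, 15 were down-regulated and 0 up-regulated in K36M cells, with a median log2 change of -1.59, while WT cells had 18 down-regulated with a median of -3.29 and Ctrl cells 19 with a median of -4.13. Smooth muscle actin gene *Acta2* (chromosome 19 from 34315580 to 34329826) went from 424 to 57.5 RPKM in K36M cells and from 529 to 7.73 in WT cells, and the K36M change was 3.21 (3.02 to 3.41) above that in WT cells. *Tagln* went from 187 to 25.0 in K36M cells and from 136 to 4.32 in WT cells. *Myl9* went from 96.2 to 12.9 and from 102 to 1.21. For 18 of the 20 the K36M change lay above that in WT cells with an interval that excluded 0. *Ccn2*, a growth factor gene and YAP target, went from 29.2 to 10.7 in K36M cells, 106 to 1.11 in WT cells, and 176 to 0.764 in Ctrl cells.

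The CArG box, the serum response factor motif, was searched in the 250 bases before the start. It was in 3 of the 17 promoters at hand for these genes (17.6%) and in 1.62% of all 27025 genes with a RefSeq promoter. The share was 1.42% for genes counted in K36M cells, 2.98% for those down-regulated, and 1.95% for those up-regulated. Because the list was chosen to hold targets of this factor, a high share was built in. Of the 3 genes, *Vcl* was not down-regulated. Promoter stretches of *Myl9* and *Cnn2*, both down-regulated, are printed as examples from the contractile group, with the box in capitals, 5′ to 3′ on the gene's strand. They lie at chr2:156775263-156775352 (plus strand) and chr10:79988504-79988593 (plus strand) in RefSeq's GRCm38.p6, a later build than the mm9 of the expression data. A match describes letters and not a bound site.
Myl9: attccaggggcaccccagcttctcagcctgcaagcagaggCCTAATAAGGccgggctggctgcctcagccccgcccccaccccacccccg
Cnn2: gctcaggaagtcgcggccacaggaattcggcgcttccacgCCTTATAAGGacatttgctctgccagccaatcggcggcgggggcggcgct

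Matrix genes were split in K36M cells. Of 30 counted collagens and matrix proteins, 8 were up-regulated and 10 were down-regulated, with a median of -0.34, whereas 6 and 20 were called in WT cells (median -1.92) and 3 and 20 in Ctrl cells (median -1.49). Of 17 down-regulated in both WT and Ctrl cells, 9 were down-regulated in K36M cells. The lysyl oxidase gene *Lox* went from 316 to 118 RPKM in K36M cells and from 548 to 9.92 in WT cells. *Col1a1*, the main fibrillar collagen gene, went from 223 to 147 and from 560 to 52.1. *Thbs1*, a thrombospondin gene, went from 57.2 to 34.0 and from 366 to 11.3. *Sparc* went from 512 to 668 and from 593 to 172.

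Of the 8 up-regulated matrix genes, all but *Dcn* were collagens. *Col15a1*, a basement membrane zone collagen gene, was 25.1-fold higher, from 5.18 to 130 RPKM, and was also up-regulated in WT and Ctrl cells. *Col6a1* (80.9 to 461), *Col6a2* (71.0 to 533), *Col4a1* (157 to 373), and *Col4a2* (127 to 308) belong to the pericellular and basement membrane networks of adipocytes. *Col3a1*, a fibrillar collagen gene, went from 27.4 to 99.2 in K36M cells, where it began lower than the 142 of WT cells, which fell to 34.8. Among 20 genes of TGF-beta signaling, 3 were up-regulated and 5 down-regulated, beside 10.2% and 11.2% of all counted genes. The activin subunit gene *Inhba* went from 43.2 to 3.76 and the coreceptor gene *Tgfbr3* from 21.0 to 105.

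Preadipocyte markers were partly retained in K36M cells. Of 12 counted markers, 4 were down-regulated (median -0.81), compared with 10 in WT cells (median -1.77), and the summed RPKM of all 15 listed at D2 was 1651 in K36M and 794 in WT cells. *S100a4* went from 347 to 123 RPKM in K36M cells and from 362 to 9.02 in WT cells. *Ly6a*, which codes for the progenitor antigen SCA-1, went from 60.5 to 86.3 in K36M cells and from 197 to 31.3 in WT cells. For 11 of the 12 the K36M change lay above that in WT cells with an interval that excluded 0.

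Chemokine and inflammatory genes were mixed. Of 21 counted, 8 were down-regulated and 4 up-regulated in K36M cells (median -0.56), and 16 and 1 in WT cells (median -3.04). Ctrl cells had 10 and 1 (median -1.27) and *Nsd2* KD cells 7 and 3 (median -0.72), both nearer to K36M than WT cells were. Monocyte attractants *Ccl2* and *Ccl7* went from 522 to 72.3 and from 479 to 90.6 RPKM, and the growth factor gene *Csf1* went from 421 to 71.3. In WT cells *Ccl2* went from 1216 to 12.8. The 4 up-regulated genes were the acute-phase gene *Hp*, complement gene *C3*, *Ptges*, and *Il11*.

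Interferon-stimulated genes gave the most uniform repression of the lists examined, although this list was added after *Rsad2*, *Usp18*, and *Ifit3* had been seen among the largest falls. Of 24 counted genes, 23 were down-regulated and 0 up-regulated in K36M cells, with a median log2 change of -2.89, and the summed RPKM of the 25 listed went from 1150 to 155. *Isg15*, a ubiquitin-like modifier gene (chromosome 4 from 155573533 to 155574927), went from 185 to 19.2. *Ifit1*, which binds foreign RNA, went from 101 to 11.3, and the factor gene *Irf7* from 36.4 to 3.84. In WT cells 23 of the 24 were down-regulated, with a median of -5.88, and in Ctrl cells 18, with a median of -1.71. In *Nsd2* KD cells 6 were up-regulated and 1 down-regulated, with a median of 0.67. All 24 K36M changes lay above WT cells with an interval of the difference that excluded 0.

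Promoters of 5 down-regulated interferon-stimulated genes are shown, chosen from those in which a motif core was found. The core of the interferon-stimulated response element, written GAAANNGAA, was searched on both strands in the 250 bases before the start. It was in 9 of 17 genes of this list with a RefSeq promoter (52.9%) and in 8.18% of all genes with one. The share was 7.17% for genes counted in K36M cells, 10.9% for those down-regulated, and 5.97% for those up-regulated. The 10.9% includes the 9 listed genes. Because the list was made of genes known to respond to interferon, a high share was built in. The cause of their falls was not tested, and a match describes letters, not a bound site. The stretches are from GRCm38.p6, 5′ to 3′ on the gene's strand, with the core, or its reverse complement, in capitals. Overlapping cores form 1 longer run. They lie at chr5:92349054-92349139 (minus) for *Cxcl10*, chr12:26456523-26456611 (minus) for *Rsad2*, chr19:34583334-34583475 (plus) for *Ifit3*, chr19:34640740-34640853 (plus) for *Ifit1*, and chr4:156200836-156200936 (minus) for *Isg15*.
Cxcl10: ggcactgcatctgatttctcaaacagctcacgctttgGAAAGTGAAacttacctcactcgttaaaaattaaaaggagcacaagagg
Rsad2: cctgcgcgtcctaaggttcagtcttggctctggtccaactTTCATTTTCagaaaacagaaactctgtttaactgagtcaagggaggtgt
Ifit3: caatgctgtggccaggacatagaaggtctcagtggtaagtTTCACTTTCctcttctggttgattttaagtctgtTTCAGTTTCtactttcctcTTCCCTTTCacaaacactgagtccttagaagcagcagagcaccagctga
Ifit1: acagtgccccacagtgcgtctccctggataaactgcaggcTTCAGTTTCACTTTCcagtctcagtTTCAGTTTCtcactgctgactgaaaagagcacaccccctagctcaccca
Isg15: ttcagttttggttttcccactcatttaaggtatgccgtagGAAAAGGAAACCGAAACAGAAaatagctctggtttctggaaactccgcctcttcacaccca

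The genes of H3K36 and H3K27 methylation and of H3.3 were steady in K36M cells. Of 28, 2 were up-regulated, the PRC2 cofactor gene *Jarid2* (1.69 to 3.90 RPKM) and the H3.3 gene *H3f3a* (9.41 to 21.7), and 0 were down-regulated. The endogenous methyltransferase genes *Nsd2* and *Setd2* went from 30.9 to 23.0 and from 20.5 to 14.9, and *Ezh2*, which codes for the H3K27 methyltransferase, from 20.0 to 16.8. The retroviral transgene is not listed as a transcript of its own, so its level was not measured. A further 2 lists were added after the values were seen. Of 28 ER stress and ATF4 targets, 3 were down-regulated and 0 up-regulated in K36M cells (median -0.33). WT cells had 0 down-regulated and 1 up-regulated (median 0.25). In Ctrl and *Nsd2* KD cells, 15 were up-regulated and 0 down-regulated in each (medians 1.43 and 1.66). Of 13 NRF2 targets, 2 were called in each direction in K36M cells, beside 10.2% up-regulated and 11.2% down-regulated among all counted genes.

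The K36M course was then set beside the courses that share no library with it. In WT cells, 9.38% of 12155 genes were up-regulated and 17.3% down-regulated. The shares were 11.3% and 16.1% of 11980 genes in Ctrl cells, and 11.8% and 16.8% of 11796 genes in *Nsd2* KD cells. Down-regulation was thus less frequent in K36M cells, at 11.2%, than in the other 3 courses, while up-regulation, at 10.2%, lay within their range. Among 10975 genes with reads in all 8 libraries, the log2 changes in K36M cells correlated with those in WT cells at a Pearson's r of 0.653 and a Spearman's correlation of 0.570, and with those in Ctrl cells at 0.392 and 0.241. WT and Ctrl cells gave 0.754 and 0.649. The points are genes within libraries, which are not independent, and the K36M and WT libraries come from the same experiment.

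**Figure D3:**
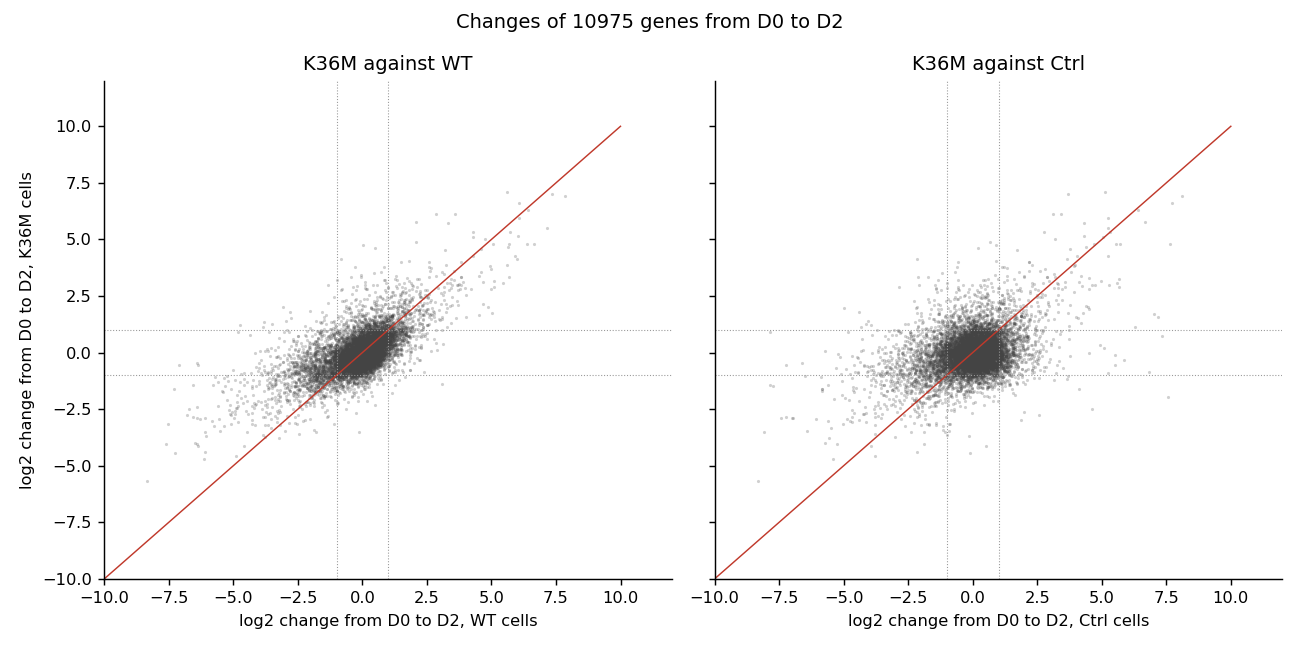
Log2 change from D0 to D2 in K36M cells (vertical) against WT (left) and Ctrl cells (right) for 10975 genes, 1 point each, with the line of equal change and dotted lines at 2-fold. Points at the far left lie above the line, but they are extreme on the horizontal axis, which by itself can place points there. Counted without that choice, 199 genes fell over 8-fold in K36M, 491 in WT, and 363 in Ctrl cells. The cloud is broader against Ctrl (r 0.392) than against WT (r 0.653).

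Ctrl cells carried neither H3.3 vector, and 1185 of the 11021 genes counted in all 4 courses rose over 2-fold in them while 1506 fell. Of the 1185, 28.1% were also up-regulated in K36M cells (333 genes), 41.4% in WT cells, and 55.7% in *Nsd2* KD cells, and 8.37% of all 11021 genes were up-regulated in K36M cells. Of the 1506, 30.1% were also down-regulated in K36M cells (454 genes), 68.7% in WT cells, and 70.3% in *Nsd2* KD cells. In K36M cells, 8.42% of all 11021 were down-regulated. Ctrl and *Nsd2* KD cells come from the same experiment, and their log2 changes correlated at a Pearson's r of 0.775. The *Nsd2* KD shares are therefore not directly comparable with those of K36M and WT cells. The counted genes up-regulated in Ctrl cells had median log2 changes of 0.32 in K36M and 0.79 in WT cells, and those down-regulated had -0.53 and -1.56. Read from the K36M side, 36.1% of its 922 up-regulated genes among these were up-regulated in Ctrl cells and 49.0% in WT cells, and 48.9% and 66.4% of its 928 down-regulated genes were down-regulated there.

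Genes with the same response in both control populations were kept more often in the upward direction. The direction depended on the choice of genes. Of those chosen on Ctrl cells alone, 28.1% were kept upward and 30.1% downward. Of those chosen on WT cells, which share the experiment of K36M cells, 49.1% and 39.1% were kept. Of 490 genes up-regulated in both WT and Ctrl cells, 278 (56.7%) were up-regulated in K36M cells and 4 were down-regulated. Of 1035 down-regulated in both, 421 (40.7%) were down-regulated in K36M cells and 19 were up-regulated. The corresponding shares in *Nsd2* KD cells, which share the experiment of Ctrl cells, were 51.8% and 76.1%. No test of these differences was possible with 1 library per condition.

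**Figure D4:**
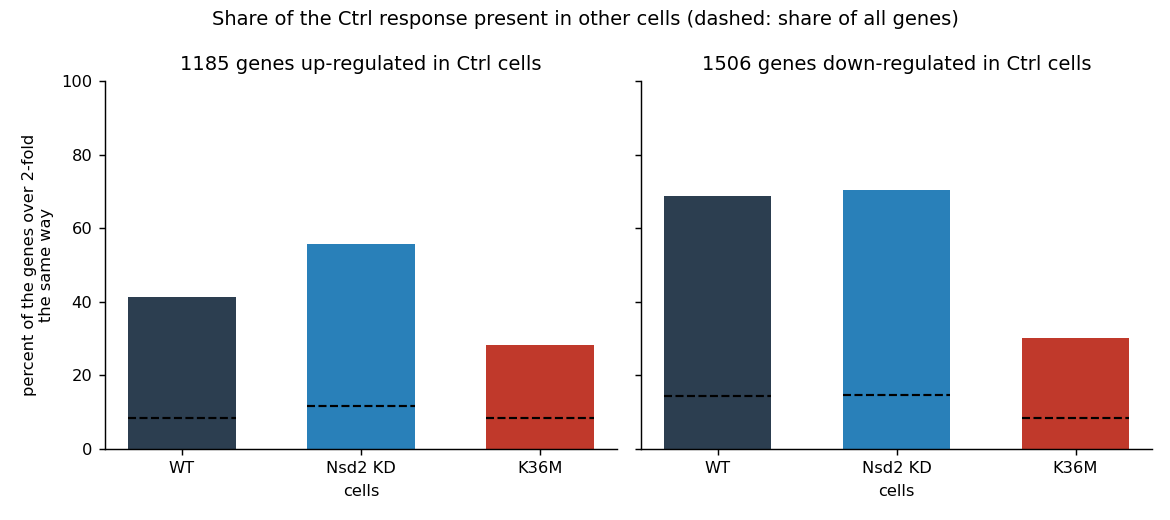
Percent of the 1185 genes up-regulated (left) and 1506 genes down-regulated (right) in Ctrl cells that changed over 2-fold the same way in WT, *Nsd2* KD, and K36M cells, with dashed lines at the percent of all 11021 genes. The K36M bars stand at 28.1% and 30.1%, lower than the WT bars at 41.4% and 68.7% and above their dashed lines at 8.37% and 8.42%. Ctrl and *Nsd2* KD cells come from the same experiment, separate from that of WT and K36M cells.

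An RPKM of 10 or more was reached in a K36M library by 6661 genes. Of these, 443 changed over 2-fold more upward in K36M cells than in both WT and Ctrl cells and 220 over 2-fold more downward, with intervals that excluded 0. The same count for the outlying position of Ctrl cells, with no interval asked, was 411 and 246, and for WT cells 35 and 163, beside 450 and 228 for K36M cells. Standing apart by this measure was therefore about as frequent for Ctrl cells as for K36M cells.

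The 8 genes furthest above both controls fell or stayed within 2-fold there. *Steap4*, a metalloreductase gene (chromosome 5 from 7960472 to 7982213), went from 0.401 to 17.6 RPKM in K36M cells, 43.8-fold higher, from 5.06 to 4.65 in WT cells, and from 0.983 to 1.12 in Ctrl cells. *Hp*, the haptoglobin gene (chromosome 8 from 112099030 to 112103072), went from 1.87 to 40.2 in K36M cells and from 36.4 to 33.2 in WT cells, so its D2 levels were close. The matrix Gla protein gene *Mgp* went from 2.94 to 23.6 in K36M cells and from 19.9 to 7.95 in WT cells. *Sfrp1*, a secreted Wnt inhibitor gene, went from 8.17 to 18.8 in K36M cells, 51.7 to 1.95 in WT cells, and 44.0 to 2.83 in Ctrl cells. *Olfml3* went from 26.0 to 48.7 in K36M cells and from 80.4 to 2.83 in WT cells. *Ehd3*, *Syt13*, and *Ccn2* completed the 8. All 8 had a lower RPKM at D0 in K36M cells than in WT cells.

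The 8 genes furthest below both controls were *Dusp4*, *Cmss1*, *Adra2a*, *Nabp1*, *Dgat2*, *Tenm4*, *Gpat3*, and *Fabp5*. *Dusp4*, a MAP kinase phosphatase gene (chromosome 8 from 35870351 to 35882948), went from 23.1 to 8.91 RPKM in K36M cells, from 5.26 to 44.2 in WT cells, and from 7.78 to 21.0 in Ctrl cells. *Adra2a*, an antilipolytic adrenergic receptor gene, went from 13.4 to 7.87 in K36M cells and from 4.16 to 12 in WT cells. *Tenm4*, a teneurin gene, went from 5.56 to 12 in K36M cells and from 1.40 to 13.5 in WT cells, reaching a similar level from a higher start. At D0, 6 of the 8 were higher in K36M than in WT cells, the exceptions being *Dgat2* and *Fabp5*. Of these 8, *Fabp5*, *Gpat3*, and *Tenm4* were still up-regulated over 2-fold in K36M cells.

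**Figure D5:**
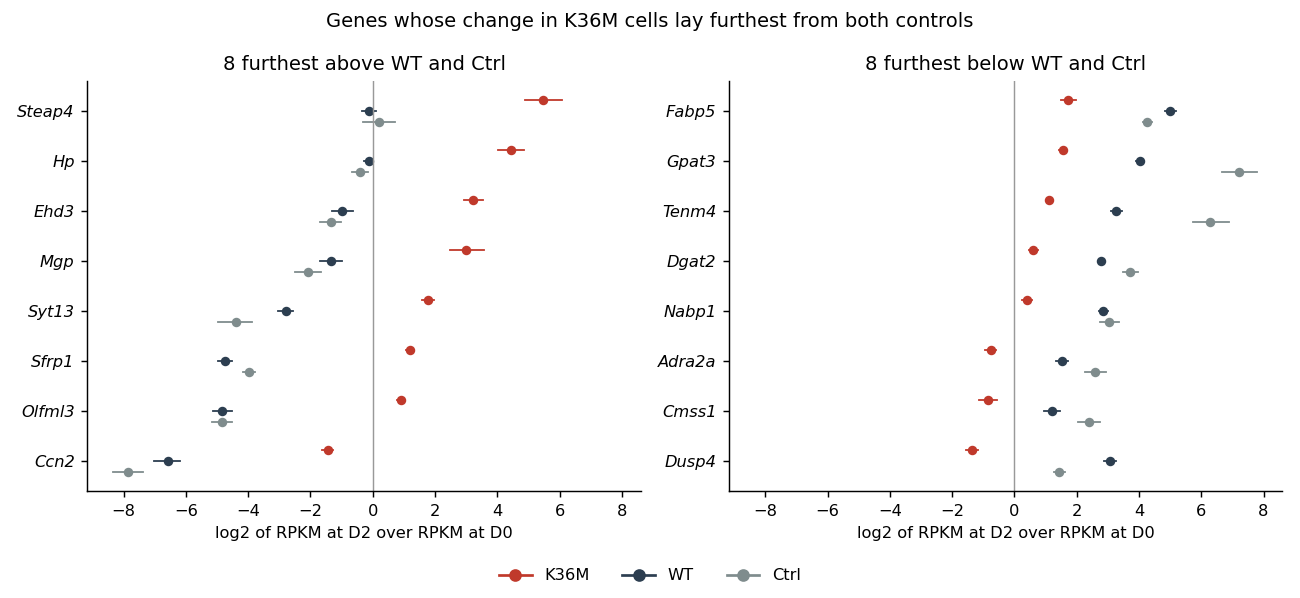
Log2 of RPKM at D2 over RPKM at D0 with 95% counting intervals in K36M (red), WT (dark), and Ctrl (gray) cells for the 8 genes furthest above (left) and furthest below (right) both controls. *Steap4* stands at 5.45 in K36M cells, beside -0.12 in WT and 0.19 in Ctrl cells, and *Fabp5* at 1.73 beside 5.01 and 4.27.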

How the data were processed

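RNA-Seq was compared between K36M cells at D2 and D0, 1 library each, with the WT, Ctrl, and *Nsd2* KD courses beside it. Samples were grouped by the submitters' titles and time points. The deposited files give RPKM as computed by the authors, with 29082 RefSeq transcripts listed per library, after mRNA purification with Dynabeads and Illumina sequencing. The submitters' processing notes name CASAVA 1.8.2 and mm9. The program that counted RNA-Seq reads is not given in the sources used here. Each isoform appears to have been counted separately, since reads summed over the listed transcripts came to 108% and 101% of the mapped reads in the K36M libraries at D0 and D2, so overlapping isoforms share reads.

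Whole reads were recovered from the RPKM, as multiples of the RPKM that 1 read gives on that transcript in that library, for all 28221 transcripts above 0. Reads that share a common factor over libraries can be understated, which widens intervals. Symbols from RefSeq matched 28436 transcripts (97.8%), and 319 unmatched transcripts were counted in K36M cells under their own identifier. Gene positions are from GENCODE M1 on mm9. Promoters are from RefSeq (GRCm38.p6), and 9406 of the 12317 counted genes matched one. A change is the ratio of RPKM, with no pseudocount, and a call is a ratio over 2-fold. Where 1 library had no reads, the bound uses 3 reads in that library. Differences between courses have 95% intervals from the counting errors of all 4 libraries. Depth ranged from 12213559 to 24365867 mapped reads over the 14 libraries, and intervals cover counting error only, since PCR copies are not independent molecules. Read recovery, calls, and intervals were run on simulated reads with counting error only. The simulation used transcripts of a mean RPKM of at least 5, either unchanged or changed 4-fold. It did not cover genes near an RPKM of 1 or true changes near 2-fold. Analysis used Python 3.11.15 with pandas 2.3.3, NumPy 2.4.6, SciPy 1.17.1, and Matplotlib 3.10.9.

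The members and gene lists were chosen with earlier results of these data known, and 3 of 29 lists were added after the values were seen. Of 633 list entries, 5 were not matched. Genes are named when they belong to a list, or by rule. The rules took the 12 largest rises and falls with an RPKM of at least 10 and an interval wholly past 2-fold, the 8 genes furthest above and below both WT and Ctrl changes, and the 5 highest RPKM among up-regulated and among down-regulated genes. The libraries of D7, of ectopic PPARγ, and of ChIP-Seq were not analysed here beyond the choice of transcript and the D7 levels given at the end. Alternatives were other RPKM limits, pseudocounts, rescaling, stricter calls, and other choices of transcript. Values of some list members are not reported here.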

Additional observations from a re-analysis of the deposited data

Results flagged for a closer look

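Among genes named for the size of their change, their level, or their distance from both controls, 6 changed over 2-fold in K36M cells in the opposite direction to a change over 2-fold in control cells. These differences were not tested, since each condition is 1 library. *Dusp4* had a log2 change of -1.37 in K36M cells, 3.07 in WT cells, and 1.44 in Ctrl cells. *Mgp* had 3.00 in K36M, -1.32 in WT, and -2.07 in Ctrl cells. *Sfrp1* had 1.2 in K36M, -4.73 in WT, and -3.96 in Ctrl cells. *Syt13* had 1.77 in K36M, -2.80 in WT, and -4.39 in Ctrl cells. *Ehd3*, at 3.23 in K36M cells, was opposite to Ctrl cells (-1.35), as was *Sqstm1*, at -1.33 in K36M and 1.05 in Ctrl cells. *Mgp* rests on 35 reads at D0 and 177 at D2 in K36M cells. Among genes named as examples of a list, opposite calls stood for *Cebpd* (1.79 in K36M and -1.57 in WT cells), *Cdkn2b* (1.41 and -1.81), and *Col3a1* (1.86 and -2.02). Against Ctrl cells they stood for *Id3* (2.30 in K36M and -1.52 in Ctrl cells), *Gas1* (2.79 and -1.21), *Egr1* (1.04 and -1.64), *Atf3* (-2.52 and 4.62), *Myc* (-1.03 and 1.48), and *Gadd45a* (-1.02 and 3.70), also untested.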

How the results depend on the processing

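No paired analysis was possible because each condition has 1 library. With every gene above an RPKM of 0 counted, 3011 genes were up-regulated and 3559 down-regulated in K36M cells, and 31.6% and 40.1% of the genes called in Ctrl cells were called the same way in K36M cells. With an RPKM of at least 5, the values were 801, 767, 23.8%, and 26.3%. With a pseudocount of 1, 892 genes were down-regulated, and the down-regulated share was 25.0%. With the D2 library rescaled to a median change of 0, the shares were 32.3% and 25.8%. With intervals wholly past 2-fold, 773 and 794 genes were called, and the down-regulated share was 23.4%. Over 4-fold, 448 and 436 genes were called, with shares of 32.6% and 17.0%. The higher counts with no limit follow from counting more genes, and the lower ones from counting fewer or calling more strictly. The share in WT cells stayed above that in K36M cells in each of these settings, at 39.5% to 43.3% for up-regulated and 66.2% to 69.1% for down-regulated genes. Of 243 values of named genes under other settings, 0 changed sign, 211 stayed within their counting interval, and 32 did not, 26 of these with a pseudocount of 1. A pseudocount of 1 also moved the median log2 change of lipid droplet genes to 2.06, of adipokines to 2.40, and of markers of other cell types to -0.98. Depth limits genes near an RPKM of 1, and with no replicate the spread between cultures is unknown.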

Other observations

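After 2 days of induction, the study changed the medium to one with serum, insulin, and T3, without IBMX, dexamethasone, or indomethacin. Several genes raised at D2, named here as examples, stood lower in the K36M library of D7. *Fabp4* was at 143 RPKM at D7 after 1473 at D2, *Cidec* at 11.4 after 54.0, *Rgs2* at 3.16 after 67.8, *Zbtb16* at 5.28 after 36.1, and *Cebpa* at 24.4 after 44.9. *Adipoq*, at 21.0 after 10.6, was higher. Of genes repressed at D2, *Cxcl10* (276 at D7 and 235 at D0), *Isg15* (282 and 185), and *Ccl2* (1487 and 522) were above their D0 level at D7, and *Acta2* (204 and 424) was between its D0 and D2 levels. *Sfrp1*, at 213, and *Mgp*, at 202, were at their highest of the 3 K36M libraries at D7. These are levels in 1 library each and were not tested. No count over all genes was made, the WT library of D7 was not set beside them, and time and the change of medium cannot be told apart.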
